A study of Mus musculus with 23 samples.

Results

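The protein complex studied here is SNARP, a nuclear RNA-processing complex, through 4 of its genes: *Thrap3*, *Bclaf1*, *Pnn* and *Snw1*. They were chosen by name, as the rows of the RNA-seq table that map to these symbols, and all 4 were found among the 20599 genes of the table. The paralog *Bclaf3* was followed beside them. The cells were BetaTC6 (β-TC6), an insulin-secreting line from a tumor of transgenic mice on the C57BL/6 background, at 5 to 15 passages and with no treatment. *Bmal1*-/- cells carried a CRISPR-Cas9 deletion of exon 8 of *Bmal1*, *Clock*-/- cells a deletion of exons 6 and 7 of *Clock*, and WT cells no edit, and the edited lines were grown from single colonies, so that genotype and clone cannot be told apart. RNA-seq was available from 3 libraries of each of the 3 genotypes, and THRAP3 ChIP-seq peak lists from 2 libraries of *Bmal1*-/- cells and 2 of WT cells. The RNA-seq libraries were harvested in triplicate without separate cultures being stated, so p-values measure the spread between these libraries, which may be technical.

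SNARP was described in human cells as a set of nuclear proteins that act together on RNA made by polymerase II, among them the RNA of cyclin D1. THRAP3 (also TRAP150) and BCLAF1 are related arginine- and serine-rich proteins of nuclear speckles that bind RNA and take part in splicing, export and decay of mRNA. PNN (pinin) is an arginine- and serine-rich speckle protein that joins RNPS1 in complexes beside the exon junction complex, and SNW1 (SKIP) is a core protein of the catalytic spliceosome that also acts as a transcriptional coregulator. The study took up THRAP3 as an RNA-binding protein whose gene is rhythmic in islets, which regulates splicing and associates with the clock factors BMAL1 and CLOCK, a pair that binds E-box DNA.

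The genes lie apart in the genome (mm10), except that *Pnn* and *Snw1* share chromosome 12. *Thrap3* is at chr4:126164082-126202760 on the minus strand, *Bclaf1* at chr10:20312469-20344613 on the plus strand, *Pnn* at chr12:59066884-59073998 on the plus strand and *Snw1* at chr12:87449075-87472274 on the minus strand. *Bclaf3* is at chrX:159526688-159593081 on the plus strand. To show the DNA on which the ChIP-seq results below turn, the promoters that RefSeq (GRCm38.p6) gives for 3 of the 4 genes, from 250 bases before to 50 bases after the transcript start, and the peak inside *Snw1* are printed 5′ to 3′, with matches to the searched motifs in capitals. The motifs were the E-box CACGTG, the ETS core CCGGAAG, the CRE site TGACGTCA and the AP-1 site TGANTCA, searched on both strands, and no match overlapped another.
*Thrap3* promoter, chr4:126202661-126202960, minus strand: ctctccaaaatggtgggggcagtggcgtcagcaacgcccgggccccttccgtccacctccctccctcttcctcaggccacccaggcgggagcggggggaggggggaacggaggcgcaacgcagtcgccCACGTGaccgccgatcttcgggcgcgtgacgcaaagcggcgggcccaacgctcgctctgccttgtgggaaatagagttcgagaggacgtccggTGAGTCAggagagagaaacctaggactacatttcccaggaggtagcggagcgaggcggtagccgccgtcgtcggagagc
*Bclaf1* promoter, chr10:20312219-20312518, plus strand: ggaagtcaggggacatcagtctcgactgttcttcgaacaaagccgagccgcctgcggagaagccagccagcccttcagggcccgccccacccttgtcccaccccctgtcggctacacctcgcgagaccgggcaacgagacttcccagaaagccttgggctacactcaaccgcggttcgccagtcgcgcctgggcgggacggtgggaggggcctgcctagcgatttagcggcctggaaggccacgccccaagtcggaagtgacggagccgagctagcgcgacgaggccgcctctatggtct
*Pnn* promoter, chr12:59066669-59066968, plus strand: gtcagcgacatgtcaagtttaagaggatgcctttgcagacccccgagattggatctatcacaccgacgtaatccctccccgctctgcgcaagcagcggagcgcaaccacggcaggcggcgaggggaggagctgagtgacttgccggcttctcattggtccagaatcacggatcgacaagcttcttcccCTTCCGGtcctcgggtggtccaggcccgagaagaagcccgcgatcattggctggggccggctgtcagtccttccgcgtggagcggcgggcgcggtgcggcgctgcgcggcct
*Snw1* intronic peak of *Bmal1*-/- replicate 2, chr12:87466234-87466478, plus strand: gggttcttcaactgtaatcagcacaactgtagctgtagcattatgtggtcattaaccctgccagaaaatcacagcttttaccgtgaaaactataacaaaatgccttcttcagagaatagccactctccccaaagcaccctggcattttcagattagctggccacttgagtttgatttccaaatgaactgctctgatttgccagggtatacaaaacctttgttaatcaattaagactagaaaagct

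The *Thrap3* promoter held an E-box whose first base was 122 bases before the transcript start and an AP-1 site, TGAGTCA, 29 bases before it. Of 32851 RefSeq promoters of this length, 7.15% held the E-box and 7.81% the AP-1 site. The *Pnn* promoter held 1 ETS core, read on the other strand as CTTCCGG, 62 bases before the start, as did 8.86% of the promoters. The *Bclaf1* promoter and the *Snw1* peak held none of these letters. The promoters were GC-rich (67.0% for *Thrap3*, 66.3% for *Bclaf1* and 64.3% for *Pnn*), against 40.4% GC in the *Snw1* peak. A match is a description of the letters and not evidence of binding.

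All 4 genes were strongly expressed in every library. Levels are given in TPM (transcripts per 1000000), which is scaled for transcript length and can therefore be set side by side between genes. Each gene's mean level in each genotype was above that of 79.6% or more of the 15031 genes tested in that genotype. In *Bmal1*-/- cells *Snw1* was the highest with a mean of 168 ± 3.50 TPM, followed by *Thrap3* (79.6 ± 1.71), *Pnn* (75.8 ± 4.21) and *Bclaf1* (62.0 ± 4.55; SD, n = 3 each). The ranges of *Thrap3* and *Pnn* overlapped there, and the other neighbors in this order did not overlap. In *Clock*-/- cells the order was *Snw1* (168 ± 10.5 TPM), *Pnn* (116 ± 12.9), *Bclaf1* (83.7 ± 15.5) and *Thrap3* (79.2 ± 17.8; n = 3 each), with overlap between *Bclaf1* and *Thrap3*. In WT cells it was *Snw1* (131 ± 5.11 TPM), *Pnn* (124 ± 8.83), *Bclaf1* (89.0 ± 8.05) and *Thrap3* (81.9 ± 7.98; n = 3 each), with overlap between *Snw1* and *Pnn* and between *Bclaf1* and *Thrap3*. *Pnn* was thus next to *Snw1* in WT and *Clock*-/- cells and beside *Thrap3* in *Bmal1*-/- cells.

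**Figure D1:**
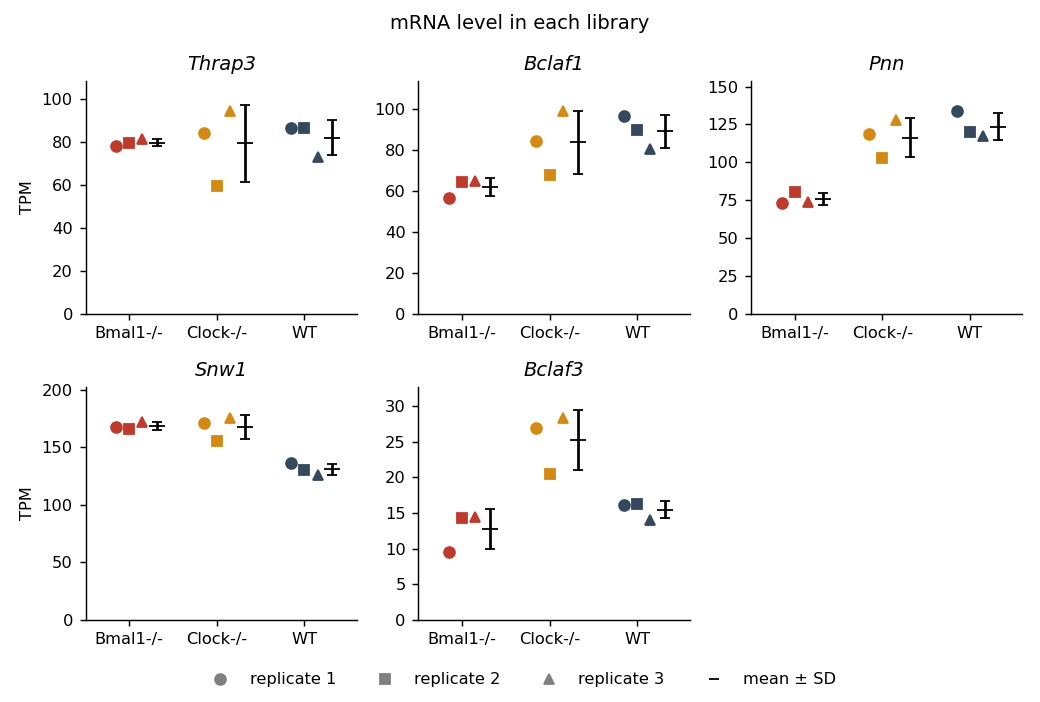
TPM of the 4 SNARP genes and *Bclaf3* in each RNA-seq library (symbols mark the replicate) with the mean and SD of the 3 libraries of each genotype. *Pnn* and *Bclaf1* lie lower in all 3 *Bmal1*-/- libraries than in the 3 WT libraries, *Snw1* lies higher in both knockouts, and *Thrap3* overlaps between all genotypes.

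The partners of THRAP3 differed in direction in *Bmal1*-/- cells, while *Thrap3* itself was within its replicate spread. In *Bmal1*-/- against WT cells 1 of the 4 genes rose (*Snw1*) and 2 fell (*Pnn* and *Bclaf1*) at an adjusted p under 0.01 in limma, where 18.4% of all genes tested rose and 21.0% fell (3 of 4 against 39.4% in either direction). The count for *Clock*-/- against WT cells was 1 that rose (*Snw1*) and 0 that fell, where 9.50% of genes rose and 14.4% fell (23.9% together). Between the knockouts, *Bmal1*-/- against *Clock*-/-, 0 rose and 1 fell (*Pnn*), where 22.8% of genes rose and 21.8% fell (44.6% together). The 3 libraries of each group did not overlap for 3 of the 4 genes in *Bmal1*-/- against WT, for 1 in *Clock*-/- against WT and for 2 in *Bmal1*-/- against *Clock*-/- cells, where 67.1%, 46.5% and 63.0% of all genes did not. With 4 genes these counts are a description. Both comparisons with WT share the same 3 WT libraries. All were modest in size, as 0 of the 4 passed the test with an absolute log2 fold change above 1, which 11.8% of genes did in *Bmal1*-/- against WT, 7.40% in *Clock*-/- against WT and 14.5% in *Bmal1*-/- against *Clock*-/- cells. In these bulk samples, fewer cells of a type and less RNA per cell cannot be told apart.

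*Thrap3* measured 77.9, 79.6 and 81.3 TPM in *Bmal1*-/- libraries 1 to 3, 84.0, 59.5 and 94.1 TPM in *Clock*-/- libraries, and 86.4, 86.6 and 72.7 TPM in WT libraries. All 3 genotypes overlapped, and *Clock*-/- library 2 was the lowest of the 9. On the scale of log2(TPM + 1), *Bmal1*-/- minus WT was -0.04 (95% interval -0.36 to 0.29, adjusted p = 0.852 in limma). *Clock*-/- minus WT was -0.07 (interval -0.40 to 0.26, adjusted p = 0.747 in limma), and *Bmal1*-/- minus *Clock*-/- was 0.03 (interval -0.30 to 0.36, adjusted p = 0.862 in limma). The intervals do not show that the levels were equal. Without *Clock*-/- library 2 the *Clock*-/- difference was 0.12 on the log2 scale, still within the spread.

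*Bclaf1*, the nearest relative of *Thrap3*, measured 56.7, 64.3 and 64.9 TPM in *Bmal1*-/- libraries, 84.3, 67.8 and 98.8 TPM in *Clock*-/- libraries, and 96.6, 89.8 and 80.6 TPM in WT libraries. Every *Bmal1*-/- library was below every WT and every *Clock*-/- library, while *Clock*-/- and WT overlapped. *Bclaf1* fell by 0.51 on the log2 scale in *Bmal1*-/- against WT cells (SE 0.13, adjusted p = 0.00733 in limma), a level 0.700-fold that of WT. This call is near its threshold in the fit of all 9 libraries, and it passed in 10 of 19 alternative settings. It was kept with only the 2 groups compared, and without WT library 3 or *Clock*-/- library 2 or 3. It was lost without each of the other libraries. There the adjusted p in limma was 0.0314 without WT library 1 and 0.0258 without WT library 2. It was 0.0317, 0.0175 and 0.0168 without *Bmal1*-/- library 1, 2 or 3, and 0.0130 without *Clock*-/- library 1. The log2 changes in these fits were -0.55 to -0.45. *Clock*-/- minus WT was -0.10 (interval -0.39 to 0.19, adjusted p = 0.579 in limma). The difference between the knockouts, *Bmal1*-/- minus *Clock*-/-, was -0.41 and did not pass the threshold (adjusted p = 0.0196 in limma). Without *Clock*-/- library 2 it was -0.55 and passed it (adjusted p = 0.00139 in limma).

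*Pnn*, whose protein links splicing factors to the exon junction complex, had the largest change of the 4. It measured 72.9, 80.6 and 73.8 TPM in *Bmal1*-/- libraries, 118, 102 and 128 TPM in *Clock*-/- libraries, and 134, 120 and 117 TPM in WT libraries. The *Bmal1*-/- libraries stood below all 6 others with no overlap, while *Clock*-/- and WT overlapped. *Pnn* fell by 0.70 on the log2 scale in *Bmal1*-/- against WT cells (SE 0.09, adjusted p = 1.48e-04 in limma), a level 0.617-fold that of WT. *Clock*-/- minus WT was -0.09 (interval -0.29 to 0.11, adjusted p = 0.479 in limma). The direct comparison of the knockouts passed the test, with *Pnn* lower by -0.61 on the log2 scale in *Bmal1*-/- than in *Clock*-/- cells (SE 0.09, adjusted p = 3.19e-04 in limma). A change at least as large as that of *Pnn* was found in 25.2% of all genes tested in *Bmal1*-/- against WT cells.

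*Snw1*, the catalytic spliceosome member, measured 167, 165 and 172 TPM in *Bmal1*-/- libraries, 171, 156 and 176 TPM in *Clock*-/- libraries, and 136, 130 and 126 TPM in WT libraries. Both knockouts stood above all 3 WT libraries and overlapped each other. *Snw1* rose by 0.36 on the log2 scale in *Bmal1*-/- cells (SE 0.06, adjusted p = 9.18e-04 in limma), a level 1.29-fold that of WT. In *Clock*-/- cells it also rose by 0.36 (SE 0.06, adjusted p = 0.00175 in limma), a level 1.28-fold that of WT. Without *Clock*-/- library 1 the adjusted p in limma for *Clock*-/- cells was 0.0105, with a log2 change of 0.34. The difference between the knockouts was 0.01 (interval -0.13 to 0.15, adjusted p = 0.928 in limma). *Snw1* was the only one of the 4 that passed the test in both knockouts.

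**Figure D2:**
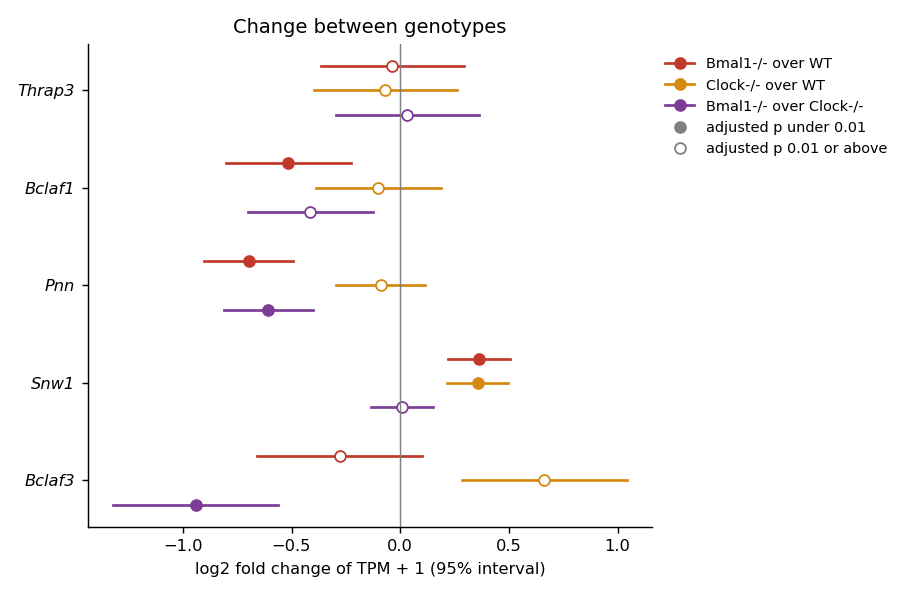
log2 fold change of TPM + 1 with its 95% interval from limma for each gene, in *Bmal1*-/- over WT, *Clock*-/- over WT and *Bmal1*-/- over *Clock*-/- cells, with filled points at an adjusted p under 0.01. *Pnn* is lower in *Bmal1*-/- cells against both other genotypes, and *Snw1* is higher in both knockouts by 0.36.

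The genes were also set against *Thrap3* within each library. The ratio of *Pnn* to *Thrap3* TPM was 0.936, 1.01 and 0.908 in *Bmal1*-/- libraries, 1.41, 1.72 and 1.36 in *Clock*-/- libraries, and 1.55, 1.38 and 1.61 in WT libraries. The *Bmal1*-/- ratios were below all others. The ratio of *Bclaf1* to *Thrap3* was 0.728, 0.807 and 0.798 in *Bmal1*-/- libraries, 1.00, 1.14 and 1.05 in *Clock*-/- libraries, and 1.12, 1.04 and 1.11 in WT libraries, again with *Bmal1*-/- below the rest. The ratio of *Snw1* to *Thrap3* was 2.15, 2.08 and 2.12 in *Bmal1*-/- libraries, 2.04, 2.62 and 1.87 in *Clock*-/- libraries, and 1.57, 1.5 and 1.73 in WT libraries, with both knockouts above WT. A ratio carries the spread of *Thrap3*, which was low in *Clock*-/- library 2 (59.5 TPM). In *Clock*-/- cells *Snw1* was at 168 ± 10.5 TPM and its ratio at 2.17 ± 0.39 (SD, n = 3 each). The mRNAs of the complex thus stood in other proportions in *Bmal1*-/- cells than in WT cells, and *Snw1* to *Thrap3* did so in *Clock*-/- cells too.

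*Bclaf3*, an X-linked gene of the BCLAF1 and THRAP3 family whose protein is little studied, was lower in level than the others. It measured 9.50, 14.3 and 14.5 TPM in *Bmal1*-/- libraries, 26.9, 20.5 and 28.4 TPM in *Clock*-/- libraries, and 16.1, 16.3 and 14.1 TPM in WT libraries. The *Clock*-/- libraries were above all others, and *Bmal1*-/- and WT overlapped. *Clock*-/- minus WT was 0.66 on the log2 scale and missed the threshold (adjusted p = 0.0124 in limma), passing it in 5 of 19 alternative settings. *Bmal1*-/- minus WT was -0.28 (adjusted p = 0.192 in limma), and *Bmal1*-/- cells were lower than *Clock*-/- cells by -0.94 (adjusted p = 0.00101 in limma). In the 3 family members *Thrap3*, *Bclaf1* and *Bclaf3*, the *Clock*-/- library 2 was the lowest of its group, as it was for *Pnn* and *Snw1*. This was not particular to these genes, as *Arntl* and *Clock* were lowest there too. The median TPM over all genes was also lowest in that library (5.57, against 6.07 and 6.62 in *Clock*-/- libraries 1 and 3).

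Across the 9 libraries, the profiles of *Bclaf1* and *Pnn* were alike. Likeness was measured as the root mean square difference of log2(TPM + 1), each gene centered on its own mean, over the 6823 other genes with a mean of at least 20 TPM, as a description of libraries that share depth and genotype. The difference was 0.12 between *Bclaf1* and *Pnn*, and 175 of the genes compared were closer to *Bclaf1* and 115 closer to *Pnn*. Between *Thrap3* and *Bclaf1* it was 0.23, with 2185 genes closer to *Thrap3*. *Pnn* and *Snw1* were the farthest apart of the 4, at 0.44. The genes nearest to *Thrap3* were *Pank1* (0.03), *Zdhhc5* (0.04) and *Disp2* (0.05). Those nearest to *Bclaf1* were *Mapk8* (0.03), *Wwp1* (0.04) and *Tm9sf3* (0.05), and those nearest to *Pnn* were *Morf4l2* (0.04), *Ntrk2* (0.05) and *Plaa* (0.05). *Rpl7l1*, *Atp6v1b2* and *Cdkn2c* were nearest to *Snw1*, each at 0.05.

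THRAP3 protein was next looked for on the chromatin of its own gene and those of its partners. ChIP-seq peaks were called by the authors in each library against the pooled input of its genotype. The lists held 12949 and 12226 peaks in *Bmal1*-/- libraries 1 and 2, against 808 and 6128 peaks in WT libraries 1 and 2, where 1.86% and 1.67% of tags lay in peaks in *Bmal1*-/- and 0.11% and 0.76% in WT libraries. WT library 1 stood apart. A gene without a listed peak in WT cells is therefore not shown to lack THRAP3, and the genotypes were not tested against each other, since a list gives no value for a gene without a peak. A promoter peak is one that overlaps the window of 1000 bases either side of an annotated transcript start.

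Of the 4 genes, 3 had a THRAP3 promoter peak in at least 1 library of *Bmal1*-/- cells (*Thrap3*, *Bclaf1* and *Snw1*), where 43.2% of 14973 genes did. By library it was 3 and 1 of the 4 in *Bmal1*-/- libraries 1 and 2, where 33.9% and 28.5% of genes had one, and 0 and 0 in WT libraries 1 and 2, where 1.46% and 13.6% did. *Thrap3* alone had one in both *Bmal1*-/- libraries, where 19.2% of genes did. In WT cells 0 of the 4 had one in either library, where 14.0% of genes had one in at least 1 library and 1.03% in both. Promoter peaks were more common among the 3632 genes with a mean of at least 50 TPM, which include all 4. There the shares were 46.1% and 38.1% in *Bmal1*-/- libraries 1 and 2, and 2.29% and 19.2% in WT libraries 1 and 2. Every annotated start had its own window, with 17 starts for *Thrap3*, 12 for *Bclaf1*, 4 for *Pnn* and 3 for *Snw1*.

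The peaks at the *Thrap3* start were above the median height of their lists. In *Bmal1*-/- library 1 the peak at chr4:126202595-126202843 had 15.7 tags, normalized to 10000000 tags per library, and was 9.02-fold over input, which placed it 3271 in the list by tags, within the highest 25.3%. The peak of *Bmal1*-/- library 2 at chr4:126202425-126202669 had 16.7 normalized tags and was 9.60-fold over input, placing it 2155, within the highest 17.6%. Both overlapped an untranslated part of an exon of *Thrap3*, and they shared 75 bases. The peak of library 1 covered 183 bases of the promoter printed above, among them both the E-box and the AP-1 site, whereas the peak of library 2 lay further into the gene and covered 9 bases of it, with neither motif. Past the end of *Thrap3*, *Bmal1*-/- library 1 listed a peak 565 bases away, at the start of *Sh3d21*, and library 2 a separate one 7867 bases away. No peak of either WT list was within 20 kb of the gene. Within 5 kb, 3.87% and 24.9% of all genes had a peak in WT libraries 1 and 2.

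At *Bclaf1*, the promoter peak was found in *Bmal1*-/- library 1 only. It was at chr10:20312120-20312368, ended 101 bases before the gene, and had 25.9 normalized tags, 5.11-fold over input. It lay over the start of *4933406P04Rik*, a noncoding RNA that is transcribed in the other direction, so the peak cannot be given to either gene. A second peak about 3 kb past the end of *Bclaf1*, at the start of *Mtfr2*, a mitochondrial fission regulator, was listed in 3 of the 4 libraries. It had 25.1 and 26.1 normalized tags in *Bmal1*-/- libraries 1 and 2, against 19.4 normalized tags in WT library 2. Its fold over input ran the other way, at 4.81 and 4.99 in *Bmal1*-/- libraries against 12.04 in WT library 2, where each genotype had its own input. It was the only peak within 20 kb of any of the 4 genes that a WT list held.

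*Snw1* was the only one of the 4 with a listed peak in its body away from the start. The intronic peaks at chr12:87466255-87466503 in *Bmal1*-/- library 1 and chr12:87466234-87466478 in library 2 shared 224 bases and lay 5895 and 5918 bases inside the gene. They had 14.9 and 15.4 normalized tags and were 8.57- and 35.3-fold over input, and overlapped no annotated exon of *Snw1*. Both lists used the same pooled input, so with tags this close the higher fold does not show a stronger peak. A peak anywhere in the gene body, starts included, was found for 35.9% and 31.8% of genes in *Bmal1*-/- libraries 1 and 2, against 2.68% and 17.7% in WT libraries 1 and 2. A promoter peak at chr12:87471834-87472082 was listed in *Bmal1*-/- library 1 only, with 11 normalized tags and 6.31-fold over input. A peak at the start of *Alkbh1*, a nucleic acid demethylase gene, lay 5300 and 5253 bases past the end of *Snw1* in *Bmal1*-/- libraries 1 and 2. For *Pnn* no list held a peak within 20 kb, a distance at which no share over all genes was counted. Within 5 kb of a gene, 48.6% and 43.6% of genes had a peak in *Bmal1*-/- libraries 1 and 2. In WT libraries 1 and 2 it was 3.87% and 24.9%. Of the 4 genes, 3 and 3 had such a peak in *Bmal1*-/- libraries 1 and 2, and 0 and 1 in WT libraries 1 and 2.

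**Figure D3:**
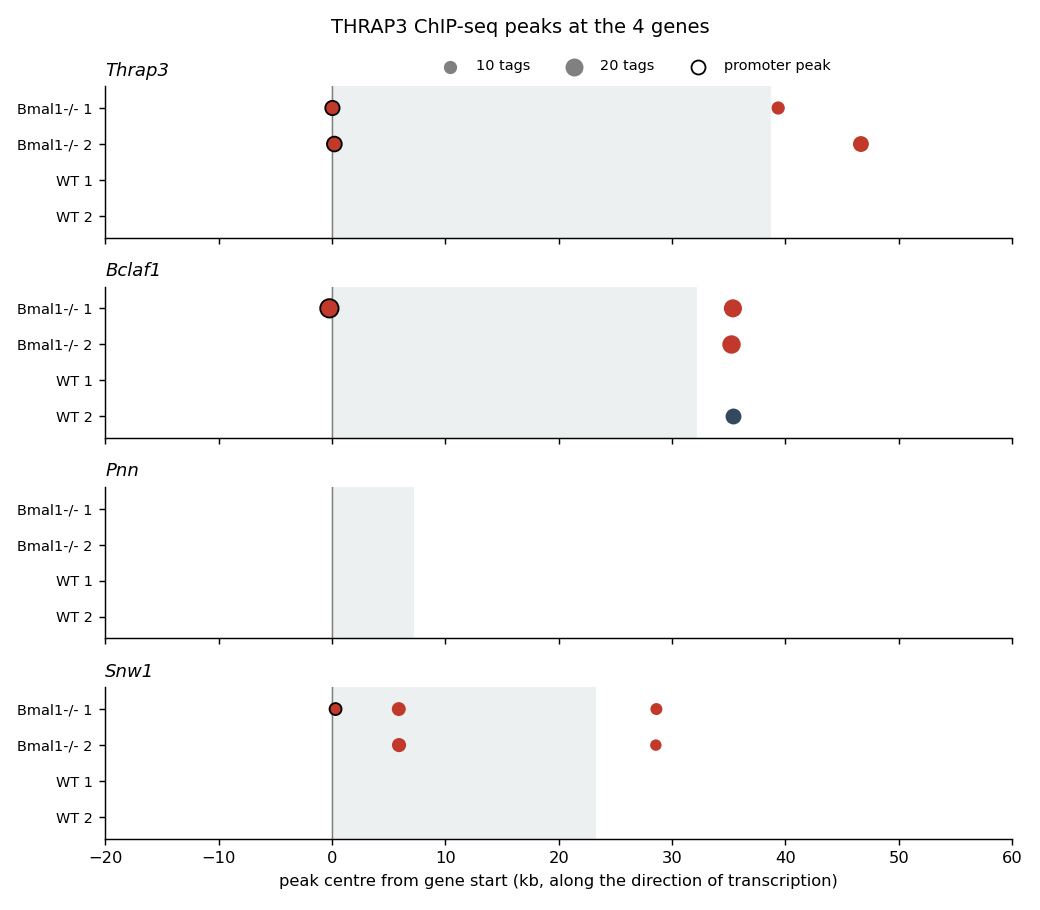
THRAP3 ChIP-seq peaks within 20 kb of each gene, by the distance of the peak center from the gene start in kb, for *Bmal1*-/- libraries 1 and 2 and WT libraries 1 and 2 (rows), with the gene body shaded, area scaled to normalized tags and promoter peaks outlined. *Thrap3* has a promoter peak in both *Bmal1*-/- libraries, *Pnn* has no peak, and the single WT peak is the one beyond *Bclaf1*.

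To place the SNARP genes among the processes they serve, related gene groups were counted in the same fit. The counts of each group are read against the shares over all genes tested, which were 18.4% that rose and 21.0% that fell in *Bmal1*-/- cells (39.4% together), and 9.50% and 14.4% in *Clock*-/- cells (23.9% together). Of 11 exon junction complex and PSAP or ASAP genes, 3 rose and 1 fell in *Bmal1*-/- cells, near the 39.4% of all genes. Their median log2 change was -0.13, against -0.04 over all genes. PSAP and ASAP are complexes of RNPS1 and its partners, with PNN in PSAP. *Pnisr*, which encodes a PNN-interacting protein, fell with *Pnn*. It measured 11.1, 16.9 and 15.7 TPM in *Bmal1*-/- libraries against 36.7, 33.5 and 30.3 TPM in WT libraries, without overlap (log2 change -1.16, SE 0.16, adjusted p = 1.89e-04 in limma). *Eif4a3*, the helicase that anchors the exon junction complex, rose by 0.67 (0.32 after the median of its chromosome was subtracted), and *Casc3*, another core protein of it, rose by 0.58. *Casc3* was no longer called after the median of its chromosome was subtracted (0.24, adjusted p = 0.131 in limma), as the median gene of chromosome 11 was itself higher by 0.35, and its adjusted p in limma was 0.0129 without WT library 3 and 0.0105, 0.0112 and 0.0104 without *Bmal1*-/- library 1, 2 or 3. In *Clock*-/- cells 0 of the 11 rose or fell, where 23.9% of all genes did, with a median of 0.14.

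Of 18 genes of the PRP19 complex and catalytic spliceosome, where SNW1 acts, 6 rose and 3 fell in *Bmal1*-/- cells (median 0.24), where 18.4% of all genes rose and 21.0% fell. *Eftud2*, the GTPase of the U5 particle, rose to 92.9 ± 3.40 TPM in *Bmal1*-/- cells, against 56.2 ± 2.38 TPM in WT cells (SD, n = 3 each), a log2 change of 0.72 that was 0.37 after the median of chromosome 11 was subtracted. *Syf2*, which encodes a PRP19-associated protein, rose by 0.63 on the log2 scale. *Bud31* fell to 151 ± 7.85 TPM in *Bmal1*-/- cells, against 250 ± 9.91 TPM in WT cells (n = 3 each), and *Plrg1*, a PRP19 core protein, fell by 0.53. In *Clock*-/- cells *Bcas2*, another PRP19 core gene, was the only one that rose (0.39), and 0 fell, where 9.50% of all genes rose and 14.4% fell, with a median of 0.04. *Bcas2* went the other way in *Bmal1*-/- against WT cells (-0.30, adjusted p = 0.00240 in limma). It differed by -0.70 in *Bmal1*-/- against *Clock*-/- cells (adjusted p = 1.06e-05 in limma). *Snw1* itself was counted outside this list.

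Of 15 measured genes of mRNA export by TREX and NXF1, in which THRAP3 and BCLAF1 also take part, 2 rose and 4 fell in *Bmal1*-/- cells (median -0.09), and 1 rose and 2 fell in *Clock*-/- cells (median 0.13). Both counts were near the shares over all genes, 39.4% in *Bmal1*-/- and 23.9% in *Clock*-/- cells in either direction. *Thoc1*, a subunit of the THO core, fell by 1.06 in *Bmal1*-/- cells, with 16.9, 20.7 and 21.4 TPM against 45.5, 40.3 and 40.1 TPM in WT libraries. *Sarnp*, which binds the export helicase, fell by 0.56 (0.50 and no longer called without WT library 1, adjusted p = 0.0160 in limma). *Thoc3*, another THO subunit, rose in both knockouts, by 0.36 in *Bmal1*-/- and by 1.03 in *Clock*-/- cells. The export adaptor *Alyref* rose by 0.40 in *Bmal1*-/- cells, but by 0.05 after the median of chromosome 11 was subtracted (adjusted p = 0.465 in limma). In *Clock*-/- cells *Thoc5* fell by 0.43 and *Poldip3* by 0.33, the second of which was -0.05 after the median of chromosome 15, itself -0.28, was subtracted (adjusted p = 0.669 in limma). The *Poldip3* call was also lost, at an adjusted p of 0.0110 to 0.0308 in limma, without WT library 1 or 2, *Bmal1*-/- library 2 or 3, or *Clock*-/- library 1 or 2.

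THRAP3 was first isolated with Mediator-like preparations. Of 33 Mediator genes, 9 rose and 4 fell in *Bmal1*-/- cells (median 0.23) and 0 rose and 1 fell in *Clock*-/- cells (median 0.03), where 39.4% of all genes rose or fell in *Bmal1*-/- and 23.9% in *Clock*-/- cells, so that the first count was at the share over all genes. The head and tail subunits *Med18* and *Med24* rose by 0.63 and 0.85 in *Bmal1*-/- cells, *Med24* by 0.51 after the median of chromosome 11 was subtracted (adjusted p = 0.0123 in limma). The kinase module genes *Med12l* and *Ccnc* fell by 0.95 and 0.56, and *Med11* fell by 0.41 in *Clock*-/- cells. *Ccnc* passed the threshold in 10 of 19 alternative settings, and its adjusted p in limma was 0.0150 to 0.0373 without WT library 1 or 2, *Bmal1*-/- library 1 or 3, or *Clock*-/- library 1. *Med11* passed it in 13 of 19, with 0.0106 without WT library 3 and 0.0121 without *Clock*-/- library 1.

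SNARP was reported to act on the RNA of cyclin D1 in human cells. The list of reported SNARP and BCLAF1 targets used here also held the D-type cyclins *Ccnd2* and *Ccnd3*. These drive entry into S phase, and no report of them as targets is given here. The list held 7 genes, of which 6 were measured and 5 were tested. Of these 5, 1 rose and 1 fell in *Bmal1*-/- cells and 1 rose and 0 fell in *Clock*-/- cells, near the 39.4% and 23.9% of all genes that rose or fell. The genes that passed were *Ccnd2* and *Ccnd3*, whereas *Exo1*, *Brip1* and *Brca1* passed in neither knockout. *Ccnd2* moved in opposite directions, with 20.7, 15.7 and 20.5 TPM in *Bmal1*-/- libraries, 279, 223 and 306 TPM in *Clock*-/- libraries, and 59.3, 51.1 and 48.0 TPM in WT libraries. The 3 genotypes did not overlap, and *Ccnd2* fell by 1.44 on the log2 scale in *Bmal1*-/- cells (adjusted p = 2.47e-05 in limma) and rose by 2.32 in *Clock*-/- cells (adjusted p = 1.77e-06 in limma). *Ccnd3* measured 31.8, 28.1 and 29.1 TPM in *Bmal1*-/- libraries against 15.9, 17.2 and 18.4 TPM in WT libraries, and rose by 0.76 (adjusted p = 5.41e-05 in limma). Cyclin D1 was not analysed here.

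**Figure D4:**
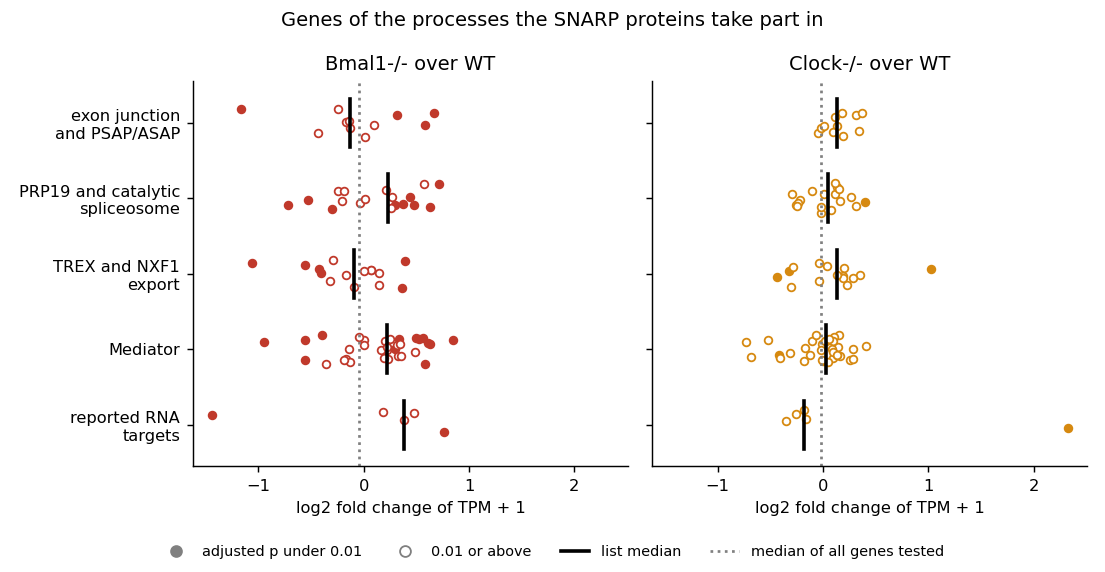
log2 fold change of TPM + 1 of each gene of 5 groups in *Bmal1*-/- over WT cells (left) and *Clock*-/- over WT cells (right), filled at an adjusted p under 0.01 in limma, with the group median (bar) and the median of all genes tested (dotted line). The Mediator and PRP19 groups have medians of 0.23 and 0.24 in *Bmal1*-/- cells and of 0.03 and 0.04 in *Clock*-/- cells, and *Ccnd2* stands at -1.44 and 2.32. The group of reported RNA targets includes *Ccnd2* and *Ccnd3*, for which no report is given here.

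The identity of the lines was checked in the same libraries. Replicates of a genotype correlated at 0.982 to 0.995 on the log2 scale, against 0.948 to 0.971 between genotypes. More genes were at 0 TPM in *Bmal1*-/- libraries 1 to 3 (2549, 2189 and 2691). The numbers were 791, 1010 and 911 in *Clock*-/- libraries and 687, 776 and 905 in WT libraries. The part of this difference in the results was not tested. The transcript of *Arntl*, which encodes BMAL1, measured 3.52, 3.32 and 3.41 TPM in *Bmal1*-/- libraries, 13.2, 10.6 and 16.2 TPM in *Clock*-/- libraries, and 3.63, 3.52 and 4.22 TPM in WT libraries. It rose by 1.57 on the log2 scale in *Clock*-/- cells, without overlap (adjusted p = 3.09e-05 in limma), and overlapped between *Bmal1*-/- and WT cells. A level over the whole gene does not see the loss of 1 exon and is no check of the labels. *Clock* measured 36.0, 28.0 and 46.6 TPM in *Clock*-/- libraries, against 49.7, 46.7 and 40.9 TPM in WT libraries. All 12 β-cell markers were above a mean of 1 TPM in *Bmal1*-/- and WT cells and 11 were in *Clock*-/- cells, where *Ucn3* was not. Their levels nevertheless changed, as 2 of the 12 rose and 6 fell in *Bmal1*-/- cells, and 4 rose and 6 fell in *Clock*-/- cells, where 39.4% and 23.9% of all genes rose or fell. *Ins1*, an insulin gene, fell by 5.22 on the log2 scale in *Clock*-/- cells, with a mean of 61.0 ± 3.17 TPM against 2307 ± 45.3 TPM in WT cells (SD, n = 3 each). *Slc2a2*, the glucose transporter GLUT2, fell by 1.34 in *Bmal1*-/- cells and fell by 3.83 in *Clock*-/- cells, with means of 42.8 TPM in *Bmal1*-/-, 6.80 TPM in *Clock*-/- and 109 TPM in WT cells. The β-cell transcription factor gene *Nkx6-1* rose in both, by 1.29 in *Bmal1*-/- and 0.93 in *Clock*-/- cells. *Neurod1*, another one, also rose in both, by 0.42 in *Bmal1*-/- and 0.40 in *Clock*-/- cells (adjusted p = 0.00298 and 0.00680 in limma). Its *Bmal1*-/- call was lost in 5 of 19 alternative settings, at an adjusted p of 0.0102 to 0.0141 in limma. The prohormone convertase gene *Pcsk1* fell by 0.74 in *Bmal1*-/- cells, and *G6pc2*, a glucose-6-phosphatase gene, rose by 0.98 in *Clock*-/- cells.

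Of 15 markers of other cell types, 9 were measured and 3 exceeded a mean of 1 TPM (*Gcg*, *Sst* and *Cela1*), and none was at 0 in all 3 libraries of a genotype. The hormone genes *Gcg* (glucagon) and *Sst* (somatostatin) fell by 3.17 and 2.06 in *Bmal1*-/- cells and rose by 1.36 and 1.94 in *Clock*-/- cells, and *Cela1*, an exocrine elastase gene, fell by 1.77 in *Bmal1*-/- cells and fell by 1.55 in *Clock*-/- cells. The summed level of the 9 was 69.1 to 79.0 TPM in *Bmal1*-/-, 1503 to 1676 TPM in *Clock*-/- and 566 to 585 TPM in WT libraries, and the part of these marker shifts in the results was not tested.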

How the data were processed

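The RNA-seq values are TPM that the authors deposited for 20599 genes in 9 libraries. They aligned reads to mm10 with STAR 2.5.0 and counted exons of the gencode vM10 annotation with featureCounts 1.5.3, as the methods and the submitters' processing notes give. Because TPM keeps no depth, limma 3.58.1 (R 4.3.3, mean-variance trend) was run on log2(TPM + 1) of all 9 libraries and 15031 genes with at least 1 TPM in at least 3 of them, with Benjamini-Hochberg adjustment across these genes. Genes rose or fell at an adjusted p under 0.01. The fit was tested on simulated data. The added 1 understates changes of low genes.

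ChIP-seq reads were aligned with Bowtie2 2.2.4 and peaks called by the authors with HOMER (factor style, at least 4-fold over input and over the local region, false discovery rate 0.001), per library. The deposited peak lists give the signal (tags normalized to 10000000), a score, and ratios as fold over input and local tags, and a peak was taken for a gene at 1 shared base. The columns of the authors' own comparisons (DESeq2 fold changes and p-values) and the eCLIP libraries were not used. Gene positions came from GENCODE on mm10, promoters from RefSeq (GRCm38.p6), which matched 3 of the 4 genes.

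Members, lists and motifs were chosen with earlier results of these data known. Genes named were the 4 genes, *Bclaf3*, *Arntl* and *Clock*, for each list the 2 largest changes in each direction among those past the threshold with a mean of at least 5 TPM, and the 3 most alike profiles per gene. An item of the naming rule is not reported here. Alternatives were the pseudocount, filter, scaling, model, chromosome median, replicate block and each library left out, and for peaks the window, fold and overlap.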

Additional observations from a re-analysis of the deposited data

Results flagged for a closer look

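The 2 knockouts differed from each other in 2 of the 5 genes, by the test of *Bmal1*-/- against *Clock*-/- cells itself. *Pnn* differed by -0.61 on the log2 scale (adjusted p = 3.19e-04 in limma), with all 3 *Bmal1*-/- libraries below all 3 *Clock*-/- libraries. *Bclaf3* differed by -0.94 (adjusted p = 0.00101 in limma), also with all 3 below. At this threshold 44.6% of all genes tested differed between these 2 lines.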

How the results depend on the processing

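Each change was recomputed under 10 alternative settings and with each of the 9 libraries left out. Of 228 such values for the 4 genes, 205 kept their direction and their side of the threshold, among them all values of *Pnn* in the 3 comparisons and of *Snw1* in *Bmal1*-/- against WT cells. The fall of *Bclaf1* in *Bmal1*-/- cells stayed at -0.51 without a filter (adjusted p = 0.0101 in limma) or without a trend (adjusted p = 0.0135 in limma) but was no longer called, and was -0.58 to -0.45 with a library left out. The replicate numbers share no more than a number, as libraries of the same number correlated at -0.21 to 0.07 in their deviations, and with the replicate block *Bclaf1* was -0.51 (adjusted p = 0.0163 in limma) while no other call of the 4 genes changed. *Bclaf1* in *Bmal1*-/- against *Clock*-/- cells became a call at -0.41 with median-of-ratios scaling and at -0.50 with quantile normalization, and was -0.55 to -0.29 with a library left out. Differences near 0 changed sign, with *Thrap3* in *Bmal1*-/- against WT cells at 0.0024 with median-of-ratios scaling, and in *Bmal1*-/- against *Clock*-/- cells *Thrap3* at -0.040 and *Snw1* at -0.0012 with quantile normalization. With a library left out, *Thrap3* ran from -0.12 to 0.0061 in *Bmal1*-/- against WT, from -0.20 to 0.12 in *Clock*-/- against WT and from -0.16 to 0.17 between the knockouts. Without WT library 1 or 2 the first of these was 0.0043 and 0.0061, and without *Clock*-/- library 2 the others were 0.12 and -0.16. *Bclaf1* ran from -0.23 to 0.040 in *Clock*-/- against WT (0.040 without *Clock*-/- library 2), and *Snw1* from 0.32 to 0.41 in *Clock*-/- against WT (0.34 without *Clock*-/- library 1) and from -0.044 to 0.042 between the knockouts (-0.0092 without *Bmal1*-/- library 3 and -0.044 without *Clock*-/- library 2). Genes that rose in *Clock*-/- cells numbered 1428, and 936 to 1596 with a library left out. In *Bmal1*-/- cells the genes with a promoter peak fell to 1 (*Thrap3*) with peaks of at least 8-fold over input and to 1 without *Bmal1*-/- library 1, against 3 otherwise. The causes were not tested.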
